A study of Mus musculus with 4 samples.

Results

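Sox5 and Sox6 are members of the SoxD group of transcription factors, and the members described here are the PTBP1 clusters on their RNA. A cluster is a stretch of the genome in which reads of an eCLIP experiment pile up. The authors deposited 1 table of clusters for each of 2 replicates, and a cluster was taken as a member when its midpoint lay in the GRCm38 (mm10) span of Sox5 or Sox6 and it was on the strand of that gene. This gave 839 of the 376266 clusters of replicate 1, with 532 in Sox5 and 307 in Sox6. It gave 898 of the 388894 clusters of replicate 2, with 566 in Sox5 and 332 in Sox6. The genes were chosen by their measured folds, since Sox5 was known to hold some of the strongest sites of these tables, so their counts and folds are given as a description, with no test.

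The study mapped where PTBP1 was crosslinked to RNA in whole heart of wild-type C57BL/6 mice. It had 2 PTBP1 immunoprecipitates (IP5, replicate 1, and IP6, replicate 2) and 2 size-matched inputs (Input 5 and Input 6). For each sample 66 mg of frozen heart was ground and crosslinked with ultraviolet light (254 nm, 400 mJ/cm2), 2% of the lysate was set aside as input before the antibody was added, and RNA of both was cut from the membrane between 50 and 125 kDa. Every fold below is the authors' own, on the log2 scale, of an immunoprecipitate over the input of its own lysate. The labels give no age, sex or number of mice and do not say that the replicates came from different animals, so differences between the replicates may be technical. The RNA came from all cells of the heart, and whether a transcript came from few cells with much of it or many cells with little cannot be told apart.

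SOX5, SOX6 and SOX13 share an HMG box that binds and bends DNA and a coiled coil through which they pair with each other, and they have no activation domain of their own. In mouse, SOX5 and SOX6 act with SOX9 in cartilage formation, and SOX6 represses slow-fibre genes in skeletal muscle and is needed for normal heart muscle and cardiac conduction. PTBP1 binds pyrimidine-rich stretches of RNA, often in introns, and is best known for keeping exons out of spliced transcripts.

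Sox5 (Entrez gene 20678) spans chr6:143828425-144782287 on the minus strand, 953.863 kb, and RefSeq lists 28 transcripts for it. Sox6 (Entrez gene 20679) spans chr7:115470872-116040776, also on the minus strand, 569.905 kb, with 51 transcripts. No cluster of either table had its midpoint in either span on the plus strand. Exon positions and the genome sequence were not used here, so clusters are placed by their distance from the 5′ end of the span and not as exonic or intronic.

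The letters under the clusters could be read only near annotated transcription start sites, from a RefSeq (GRCm38) table of promoter windows that reach from 250 bases before a start to 50 bases after it. That table held 1 window for Sox5, with its start 835.181 kb from the 5′ end of the span, and 6 for Sox6, with starts 2.032, 9.729, 45.690, 194.636, 216.066 and 239.167 kb from the 5′ end. No window lay at the 5′ end of either span, so that table may not hold every start of the 28 Sox5 and 51 Sox6 transcripts. The annotated starts named below are those with a window. No cluster reached into the Sox5 window. Clusters reached into 2 of the Sox6 windows, which are printed because they hold the only cluster sequences of either gene that could be read. Bases inside a cluster are in capitals, and both windows run 5′ to 3′ on the minus strand.

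Sox6 window, start at 9.729 kb, chr7:116030998-116031297: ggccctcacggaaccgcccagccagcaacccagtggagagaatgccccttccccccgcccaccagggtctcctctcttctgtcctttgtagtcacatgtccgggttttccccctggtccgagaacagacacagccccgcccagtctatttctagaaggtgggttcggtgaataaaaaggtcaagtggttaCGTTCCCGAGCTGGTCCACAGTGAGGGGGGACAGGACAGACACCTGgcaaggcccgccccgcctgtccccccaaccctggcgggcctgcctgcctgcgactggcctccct
Sox6 window, start at 194.636 kb, chr7:115846091-115846390: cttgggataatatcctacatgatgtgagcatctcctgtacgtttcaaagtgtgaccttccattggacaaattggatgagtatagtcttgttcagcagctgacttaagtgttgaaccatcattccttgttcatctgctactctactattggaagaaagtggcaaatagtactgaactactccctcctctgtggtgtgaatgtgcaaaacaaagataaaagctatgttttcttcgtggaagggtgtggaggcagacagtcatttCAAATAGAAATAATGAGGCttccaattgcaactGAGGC

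None of these clusters was enriched over input. The 46 bases in capitals in the window at 9.729 kb are a replicate 2 cluster at chr7:116031062-116031107, from 60 to 15 bases before the start site, with a log2 fold of -1.97, and 41.3% of them are C or T. In the window at 194.636 kb, the 19 bases that come first in capitals are a replicate 1 cluster at chr7:115846110-115846128, with a fold of -0.64, and 26.3% of them are C or T. The last 5 bases of that window are the 5′ end of a replicate 2 cluster, chr7:115846042-115846095, that runs on beyond the window and had a fold of 0.84. Over the 7 windows of the genes, C and T made up between 46.3% and 56.0% of the bases, and the median over all 32851 windows of the table was 49.7%. Short pyrimidine motifs were searched on the strand of the gene, and their matches may overlap. TCTT and TTCT occurred in each of the 7 windows (69.9% and 74.9% of all windows hold them), CTTT in 6 (73.0%), and CTCTCT in 2, those at 9.729 and 45.690 kb (14.1%).

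Enriched clusters are those whose log2 fold and −log10 p in the authors' deposited tables both reach 3. In Sox5, 65 of the 532 clusters of replicate 1 (12.2%) and 52 of the 566 of replicate 2 (9.19%) were enriched. In Sox6, 35 of the 307 clusters of replicate 1 (11.4%) and 31 of the 332 of replicate 2 (9.34%) were enriched. Over all clusters the shares were 6.31% in replicate 1 and 4.71% in replicate 2. The rule that chose the genes used these folds, so nothing is read from the distance between the shares.

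Enriched clusters that share 1 nt or more, on 1 strand, with an enriched cluster of the other replicate are called reproducible. Sox5 held 46 reproducible clusters seen from either replicate, which is 70.8% of its enriched clusters in replicate 1 and 88.5% in replicate 2. Sox6 held 28 seen from either replicate, of 35 enriched in replicate 1 and 31 in replicate 2. Over all enriched clusters of the tables, 63.0% were reproducible in replicate 1 and 78.8% in replicate 2. A lower share in replicate 1 is thus not particular to these genes. As a share of all clusters, reproducible ones made up 8.65% in Sox5 and 9.12% in Sox6 seen from replicate 1, against 3.98% of all clusters of that replicate, and 8.13% and 8.43% seen from replicate 2, against 3.72%.

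The genes were covered alike. Clusters lay at 55.8 and 59.3 per 100 kb of Sox5 in replicates 1 and 2, and at 53.9 and 58.3 per 100 kb of Sox6. They covered 4.50% and 4.64% of the Sox5 span, and 4.30% and 4.50% of the Sox6 span. The median fold was 1.36 in replicate 1 and 1.20 in replicate 2 for Sox5, and 1.15 and 1.03 for Sox6, while over all clusters it was 0.62 in each. Folds below 0 made up 9.59% and 10.8% of the Sox5 clusters and 17.9% and 21.4% of the Sox6 clusters, against 27.1% and 28.5% of all clusters. Enriched clusters were longer than the others: their median length was 147 and 142.5 nt in Sox5, where the rest had 64 and 66.5 nt, and 119 and 145 nt in Sox6, where the rest had 65.5 and 63 nt. Over the whole tables enriched clusters had a median of 130 and 131 nt.

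Joined where they touched or overlapped over both tables, the enriched clusters of Sox5 formed 51 regions, of which 31 were enriched in both replicates, 15 in replicate 1 alone and 5 in replicate 2 alone. Those of Sox6 formed 25 regions, of which 17 were enriched in both, 5 in replicate 1 alone and 3 in replicate 2 alone. A like split of regions over all genes is not given here. Over all enriched clusters the reproducible share was also lower in replicate 1, 63.0% against 78.8% in replicate 2.

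The region of Sox5 with the highest fold shared by the replicates lay close to the 5′ end. It covered chr6:144766078-144766464, 387 nt, at 15.8 kb from the 5′ end, and its strongest cluster had a log2 fold of 7.05 with a −log10 p of 48.9 in replicate 1 and 6.97 with 46.2 in replicate 2. These clusters, of 315 and 335 nt, shared 315 nt and differed by less than 0.1 in fold. A pair of weaker regions lay just upstream: the 155 nt at chr6:144766472-144766626 had folds of 4.42 and 3.45, and the 144 nt at chr6:144767250-144767393 had 4.23 and 3.68. By its top fold Sox5 ranked 35 in replicate 1 and 5 in replicate 2 among the 14198 genes with a cluster in both replicates. Sox5 was chosen for its strong sites, so these ranks restate the choice. They also compare a maximum over 532 and 566 clusters with that of genes holding far fewer.

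The next Sox5 region, chr6:144323825-144324330, lay near the middle of the gene at 458 kb, held 3 enriched clusters in each replicate and reached folds of 6.51 and 6.25. At 62.0 kb, chr6:144719800-144720330 reached 5.30 and 5.49. At 489.9 kb, chr6:144291912-144292347 reached 5.26 and 4.78. At 256 kb, chr6:144525462-144525807 reached 4.38 and 5.34. These 5 regions, the highest by the lower of their folds, thus lay in the 5′ part and the middle of the gene, and the replicate with the higher fold was not the same at each.

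**Figure D1:**
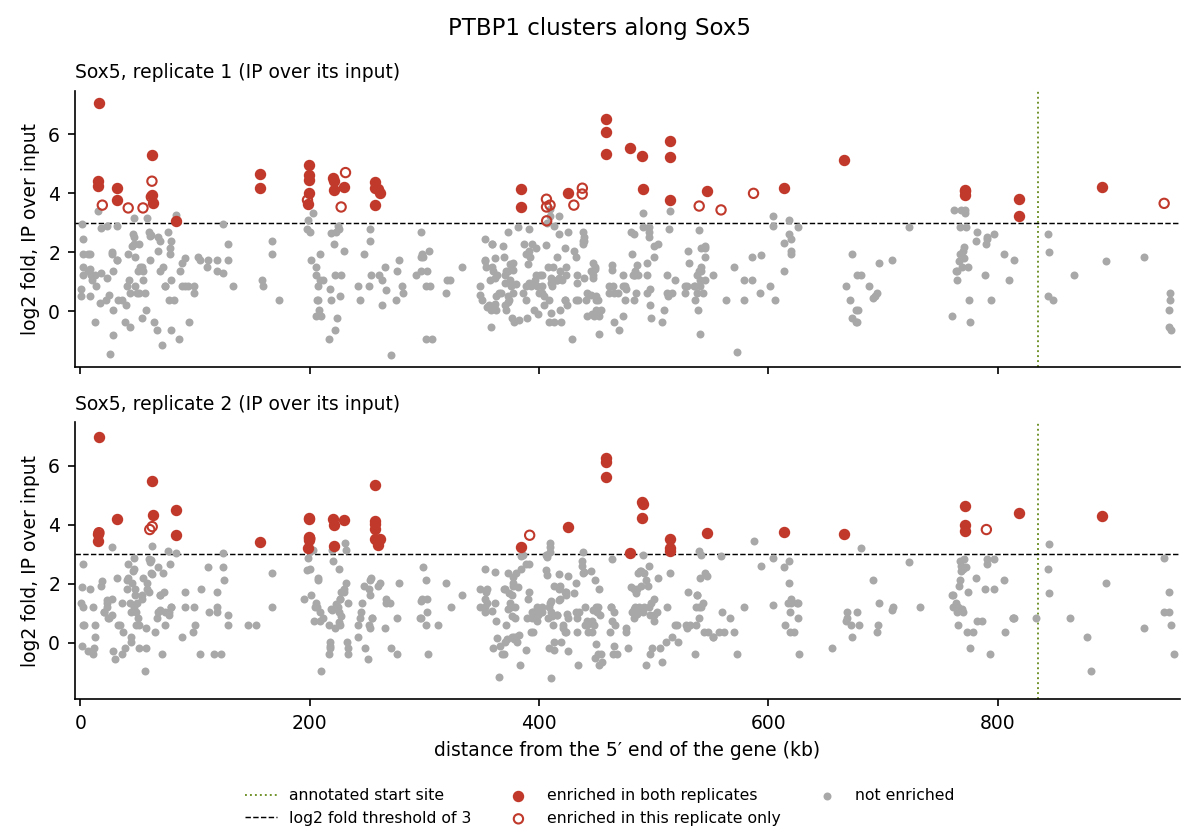
PTBP1 clusters along Sox5, replicate 1 above replicate 2: the x axis is the distance of each cluster's midpoint from the 5′ end in kb, the y axis its log2 fold of immunoprecipitate over input. Filled red points are enriched in both replicates, open red points in that replicate only, and grey points are not enriched. The dashed line is the fold threshold of 3. The dotted line is the only annotated start with a promoter window, at 835.181 kb. The highest point of both panels is at 16.0 kb, and no point between 262 and 384 kb is red.

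Sox5 clusters came in groups with sparse stretches between them. With the span cut into 10 equal bins of 95.4 kb from the 5′ end, bin 1 held 107 clusters in replicate 1 and 104 in replicate 2, bin 2 held 20 and 22, bin 3 held 65 and 91, bin 4 held 61 and 56, bin 5 held 121 and 119, and bin 6 held 70 and 78. Bins 7 to 10 held between 10 and 42 clusters each. Both replicates thus put the most clusters in bin 5 and the next most in bin 1. Enriched clusters followed another order: bin 3 held the most, 17 of 65 (26.2%) in replicate 1 and 18 of 91 (19.8%) in replicate 2, and bin 5 held 13 of 121 (10.7%) and 6 of 119 (5.04%).

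Bin 4 of Sox5 held no enriched cluster in either replicate. The longest stretch of the gene without one ran from 262 to 384 kb in both, 122 kb, and held 73 clusters in replicate 1 with folds up to 2.84 and 67 in replicate 2 with folds up to 2.56. A second stretch without one ran from 666 to 771 kb, 105 kb, with 31 and 33 clusters and folds up to 3.43 and 3.20, which missed the threshold on p. Both stretches end at the same shared regions in the replicates. RNA of these parts was thus recovered, with folds under 3 or a −log10 p under 3.

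In Sox5 bin 3 the enriched clusters stood in 3 places, near 199 kb, between 220.4 and 231.1 kb, and between 256 and 261 kb. The densest was chr6:144582686-144583227, 542 nt at 199 kb, with 4 enriched clusters in replicate 1 and 5 in replicate 2 and top folds of 4.96 and 4.24. At 256 kb the fold of chr6:144525462-144525807 was higher in replicate 2, and its neighbour chr6:144525216-144525337 had 4.19 and 4.14. Over the 31 shared Sox5 regions the distance from one to the next was 21.2 kb in the median and 0.162 kb at the least, and 8 of the distances were under 1 kb.

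In bins 7 to 10 Sox5 had fewer enriched clusters, 10 in replicate 1 and 8 in replicate 2. At 666 kb, with the highest replicate 1 fold of these bins, chr6:144116165-144116316 had 5.13 in replicate 1 and 3.71 in replicate 2. A row of 3 regions within 1 kb lay at 771 kb, chr6:144010478-144010659 with 3.94 and 3.79, chr6:144010674-144010869 with 4.10 and 4.01, and chr6:144010877-144011119 with 4.07 and 4.65, the last being the highest replicate 2 fold of these bins. Downstream of the only Sox5 start with a promoter window, at 835.181 kb, the last 118.682 kb held 14 clusters in replicate 1 and 15 in replicate 2. Their density was 11.8 and 12.6 per 100 kb, against 62.0 and 66.0 per 100 kb before that start. That part held 1 shared region, chr6:143890680-143891065 at 891 kb, with folds of 4.21 and 4.30. The enriched cluster nearest to the start on its downstream side was 56.2 kb away in each replicate.

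Sox6 had no region as high as the first of Sox5. Its highest shared fold lay in the 3′ part of the gene, at chr7:115613579-115613876, 298 nt at 427 kb from the 5′ end, with 5.55 and a −log10 p of 16.3 in replicate 1 and 5.34 with 13.98 in replicate 2. At 376 kb, chr7:115664242-115664406 reached 5.70 and 4.64. At 184 kb, chr7:115856545-115856935 reached 5.83 and 4.60. At 399.9 kb, chr7:115640461-115640891 reached 5.07 and 4.48 with 3 enriched clusters in each replicate. At 308 kb, chr7:115732471-115732664 reached 4.53 and 4.32. In all 5 the fold of replicate 1 was the higher. Of the 17 shared Sox6 regions, 16 had the higher fold in replicate 1, and of the 31 shared Sox5 regions, 23 did.

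The Sox6 cluster with the highest fold of replicate 1 was another one. It lay in chr7:115927511-115927665 at 113 kb with a fold of 6.00, and replicate 2 had 3.56 there. Its neighbour chr7:115927838-115928130 had 5.45 with a −log10 p of 30.2 in replicate 1 and 4.14 with 16.1 in replicate 2. At the other end of the agreement, chr7:115997697-115997865 at 42.9 kb had 3.44 in both replicates.

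**Figure D2:**
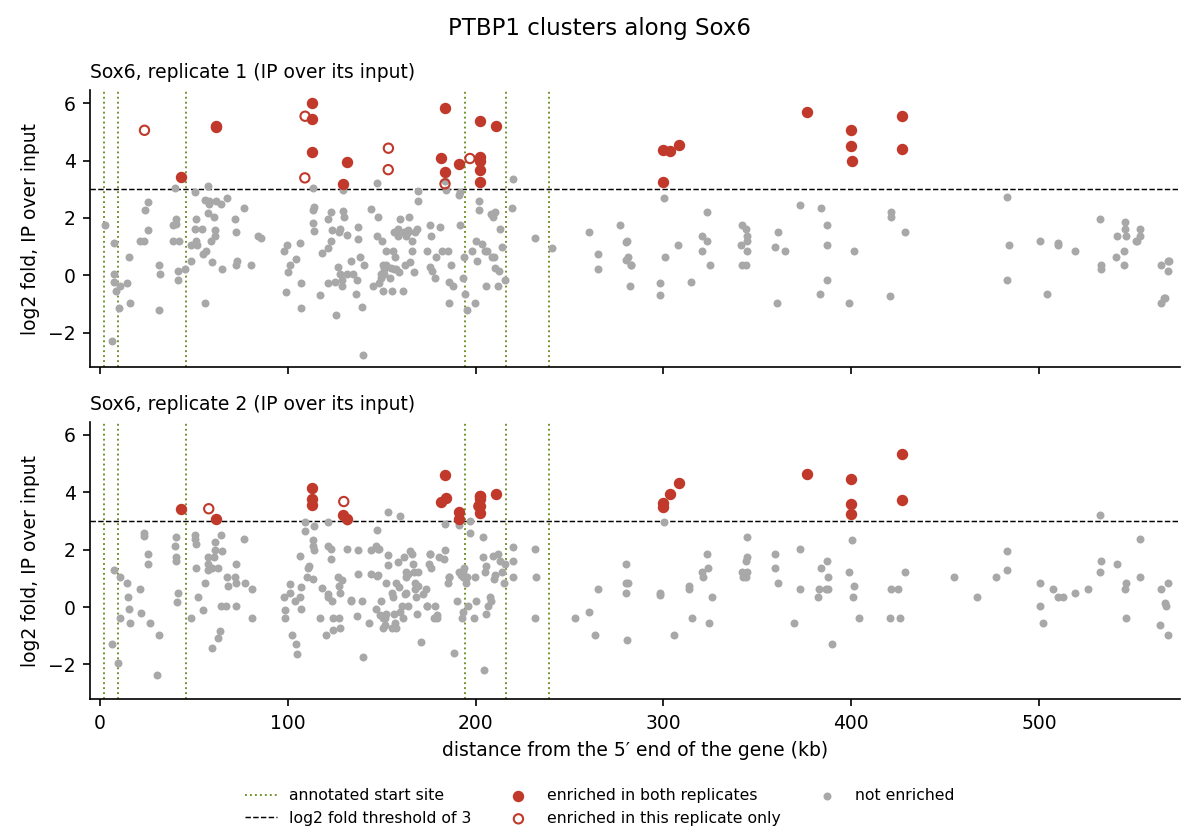
PTBP1 clusters along Sox6, drawn as for Sox5: distance from the 5′ end in kb against log2 fold of immunoprecipitate over input, replicate 1 above replicate 2, red for enriched clusters (filled where enriched in both replicates). The dotted lines mark the 6 annotated starts with a promoter window. Most grey points lie before the last start at 239.167 kb, and no point beyond 427.2 kb is red.

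Along Sox6 the clusters crowded into the 5′ part. With bins of 57.0 kb, bins 1 to 4 held 42, 41, 79 and 58 clusters in replicate 1 and 33, 52, 83 and 70 in replicate 2, and bins 5 to 10 held between 7 and 23 each. Over both genes and replicates together, 71.9% of the clusters lay in the part of the span nearer the 5′ end. The most enriched clusters were in bin 4 of Sox6, 12 of 58 (20.7%) in replicate 1 and 12 of 70 (17.1%) in replicate 2. Bin 3, with the most clusters, had 4 enriched of 79 (5.06%) and 3 of 83 (3.61%).

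Bin 8 of Sox6 had few clusters but many of them enriched, 5 of 10 in replicate 1 and 5 of 15 in replicate 2, all 5 reproducible in each. They belong to the regions at 399.9 and 427 kb. After those, the last 142.7 kb of Sox6 held 30 clusters in replicate 1 and 29 in replicate 2 with no enriched one, and folds there went up to 2.74 and 3.20. A second stretch without an enriched cluster, from 211 to 299.9 kb, held 22 clusters in each replicate with folds up to 3.36 and 2.08. These bins hold few clusters, so a change of a few moves their shares far.

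The annotated starts cut Sox6 into parts that differed in density. Between the starts at 45.690 and 194.636 kb there were 158 and 178 clusters, 106 and 119.5 per 100 kb, with 16 and 13 enriched. Between those at 194.636 and 216.066 kb there were 30 and 32, 140.0 and 149 per 100 kb, with 7 enriched in each, among them chr7:115838145-115838491 at 202 kb with 5 enriched clusters in each replicate and top folds of 5.395 and 3.87. Between 216.066 and 239.167 kb there were 3 and 6, 12.99 and 25.97 per 100 kb, with none enriched. After 239.167 kb there were 86 and 91, 26.0 and 27.5 per 100 kb, with 10 enriched in each replicate and all of them reproducible. The densest part was thus followed directly by a sparse one in both replicates.

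**Figure D3:**
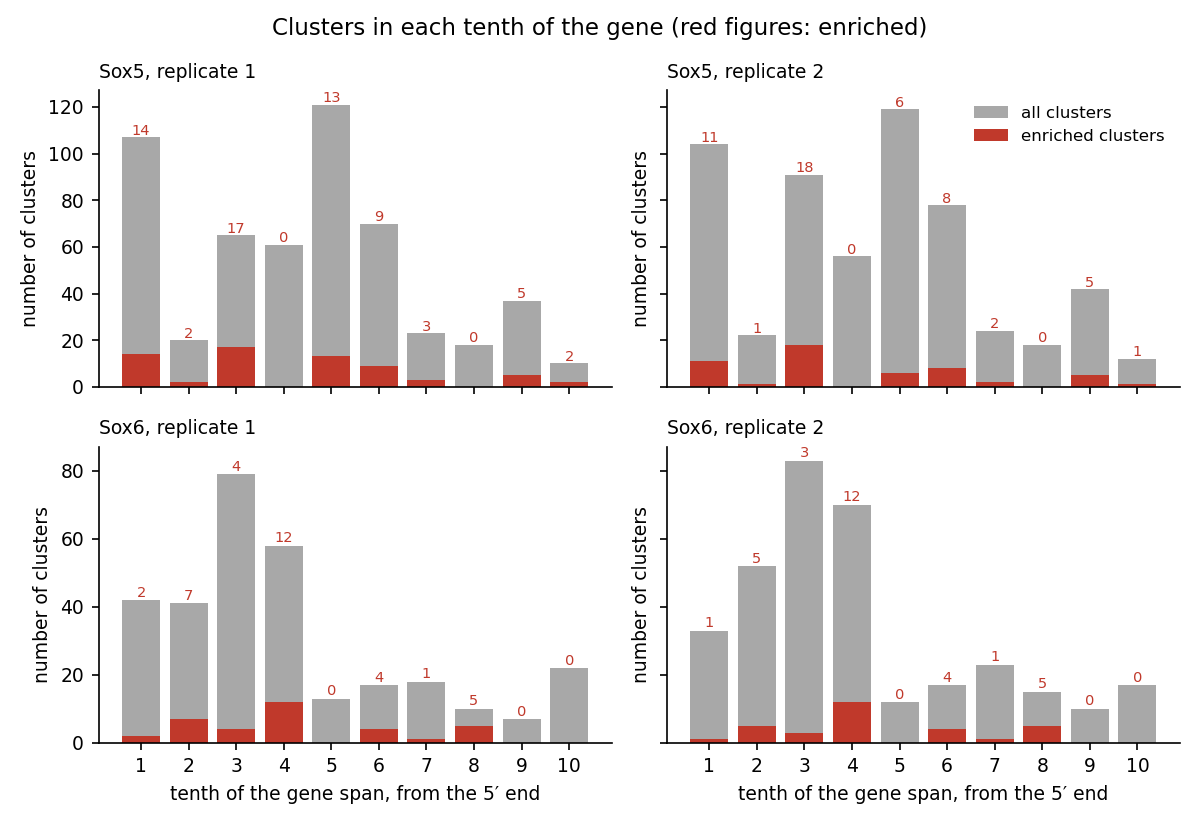
Number of clusters (grey bars) and of enriched clusters (red bars, with their number in red above each bar) in each of 10 equal bins of the gene from the 5′ end, Sox5 above Sox6, replicate 1 left and replicate 2 right. Bin 4 of Sox5 has 61 and 56 clusters with 0 enriched, and bin 8 of Sox6 has 10 and 15 clusters with 5 enriched.

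The ends of both genes carried clusters without enrichment. The cluster nearest to the 5′ end of Sox5 lay 0.67 kb inside it in replicate 1 (fold 0.74) and 0.82 kb inside in replicate 2 (1.36). The one nearest to the 3′ end lay 2.39 kb inside in replicate 1 (fold -0.64) and 0.05 kb inside in replicate 2 (-0.38). In Sox6 the cluster nearest to the 5′ end lay 2.96 kb inside in replicate 1 (1.74) and 6.64 kb inside in replicate 2 (-1.29), and that nearest to the 3′ end 0.89 kb (0.50) and 1.19 kb (0.84) inside. Within 10 kb outside either end of either gene, on its strand, there was no cluster in either table.

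Folds reached below 0 in both genes. In Sox5 the minimum was -1.48 at chr6:144511135-144511179 in replicate 1 and -1.19 at chr6:144371830-144371879 in replicate 2. In Sox6 it was -2.77 at chr7:115900887-115900952 in replicate 1 and -2.38 at chr7:116010189-116010266 in replicate 2. Just inside the threshold the lowest enriched folds were 3.05 and 3.04 in Sox5 and 3.19 and 3.08 in Sox6. Outside it, 17 and 19 Sox5 clusters and 6 and 3 Sox6 clusters had a fold of at least 3 with a −log10 p under 3, the highest of them 3.46 in each replicate of Sox5 and 3.36 and 3.32 in Sox6. A −log10 p of at least 3 with a fold under 3 was found for 5 and 13 Sox5 clusters and 8 and 10 Sox6 clusters.

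The replicates ordered the overlapping clusters of both genes alike. In Sox5, 323 clusters of replicate 1 overlapped a cluster of replicate 2, and their log2 folds correlated with Pearson's r = 0.766 and Spearman's rho = 0.732. In Sox6 the values were 0.768 and 0.739 over 187 pairs. Over all clusters of the tables they were 0.789 and 0.743, over 210643 pairs. The clusters of a gene share their libraries, and the correlations are descriptions over clusters. The difference of replicate 1 from replicate 2 had a median of 0.10 and an SD of 0.98 in Sox5, and 0.02 and 1.08 in Sox6. Over all clusters these were 0.13 and 1.01. A fold of a single cluster thus moved by about 1 log2 unit between the lysates. Where both clusters had a −log10 p of at least 3, r was 0.552 over 56 pairs in Sox5 and 0.333 over 38 pairs in Sox6, and the fold of replicate 1 was higher in 42 of the 56 and 26 of the 38.

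**Figure D4:**
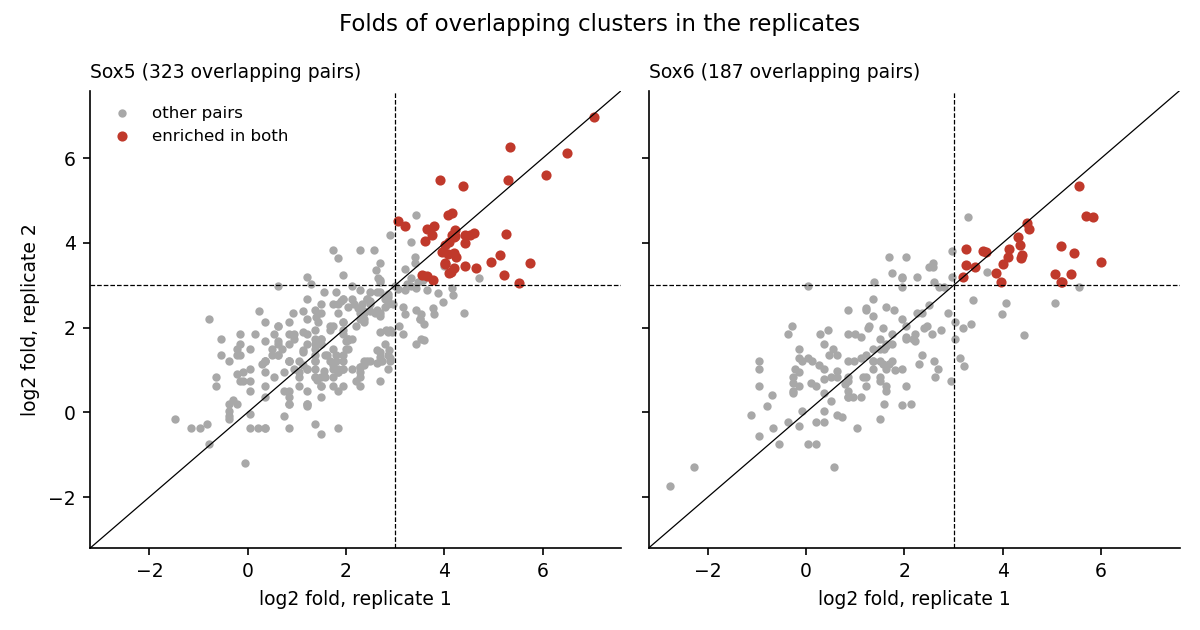
Log2 fold of each replicate 1 cluster (x axis) against that of the replicate 2 cluster that shares most nucleotides with it (y axis), for 323 pairs in Sox5 and 187 in Sox6. Dashed lines mark the threshold of 3, the solid line equal folds, and red points are pairs enriched in both; below the threshold points lie on both sides of the line, and in Sox6 most red points lie under it.

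Most clusters enriched in 1 replicate alone lay over a cluster with a positive fold in the other. Of the 19 in replicate 1 of Sox5, all overlapped a replicate 2 cluster, with folds from 1.71 to 3.46 there, and 17 of those folds were at least 2. Of the 6 in replicate 2 of Sox5, 4 overlapped a replicate 1 cluster, with folds from 1.84 to 2.68, and 2 overlapped none. In Sox6, all 7 in replicate 1 had an overlapping cluster with a fold from 1.82 to 3.32, and all 3 in replicate 2 had one from 2.04 to 2.58. At these sites the replicates thus differed in the fold over input and, outside those 2, not in whether a cluster was there. Over all clusters, enriched or not, 56.0% of replicate 1 and 54.4% of replicate 2 overlapped a cluster of the other replicate. The share over all enriched clusters is not given here, so nothing particular to these genes is read from the counts.

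Strong and weak sites alike could differ between the replicates by more than 2 log2 units. The widest gap of an overlapping pair was at clusters that were not enriched, with -0.79 in replicate 1 and 2.20 in replicate 2 in Sox5, and 0.04 and 2.99 in Sox6. Several enriched sites were lower in replicate 2. In Sox5, chr6:144303144-144303280 at 479 kb had 5.51 in replicate 1 and 3.04 in replicate 2, and chr6:144267992-144268441 at 514 kb had 5.75 and 3.53. In Sox6, chr7:115931403-115931677 at 109 kb had 5.55 in replicate 1, and replicate 2 had 2.97 there. At chr7:115887086-115887198 in Sox6, replicate 1 had 4.43, and the replicate 2 cluster sharing most of it had 1.82. At chr7:116016887-116017091, 23.7 kb from the 5′ end of Sox6, replicate 1 had 5.05 with a −log10 p of 22.2, and replicate 2 had 2.58 with 6.63. This was the enriched cluster nearest to the 5′ end of Sox6 in replicate 1, while in replicate 2 the nearest was that at 42.9 kb.

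Several lncRNA genes lie within the spans, and clusters on the strand of Sox5 or Sox6 in them cannot be given to one RNA where the lncRNA's strand was not used here. Sox5os3, at chr6:144672868-144693832 on the plus strand, had 9 clusters in replicate 1 and 8 in replicate 2 over its span, each on the minus strand and none enriched. Gm38531, also on the plus strand, had 3 and 6 over its span, each on the minus strand, with 1 enriched in replicate 1. Gm51455, inside Sox6, has no strand in the tables used and held 6 clusters on the minus strand in each replicate, none enriched. Sox6os, on the plus strand, had 1 cluster over its span in replicate 1, on the minus strand and not enriched, and none in replicate 2. With clusters in another gene span of the same strand left out, the enriched clusters of the replicates averaged 58.5 in Sox5 and 33 in Sox6, as they did with them. None of the lncRNA genes inside the spans is given a minus strand, so that rule had none of them to act on.

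The deposited folds took few values. In 77.4% and 76.5% of the Sox5 clusters and 60.6% and 61.1% of the Sox6 clusters, in replicates 1 and 2, the linear fold was a whole number times 1 constant per table, to within 0.0001 of a whole number, and so it was in 67.2% and 64.4% of all clusters. The log2 of the constant was -1.96 in replicate 1 and -1.97 in replicate 2. The median whole number was 11 and 10 in Sox5 and 10 and 8 in Sox6, and the strongest Sox5 clusters had 517 and 489. None of the labels or headers says what these numbers count. The 532 Sox5 clusters of replicate 1 held 159 different pairs of fold and p, and the 307 Sox6 clusters held 143.

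Sox13, the gene of the third SoxD factor, 42160 nt long on chromosome 1, had 30 clusters in replicate 1 and 39 in replicate 2, of which 3 and 2 were enriched and 1 was reproducible, with top folds of 4.43 and 5.09. Among the 3482 genes with a reproducible cluster (24.5% of those with a cluster in both replicates), Sox13 was the only other one of the 15 SOX genes that could be placed. The remaining SOX genes with clusters in both replicates are short and had few. Sox4, a SoxC factor, had 7 and 4 clusters with 1 enriched in replicate 1 (3.23), and Sox12 of the same group had 5 and 5 with none enriched. Sox9, the partner of SOX5 and SOX6 in cartilage, had 4 and 5 with 1 enriched in replicate 2 (3.53).

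The SoxF genes, which act in endothelial cells, all had clusters in whole heart. Sox7 had 8 and 10 with none enriched, Sox17 had 4 and 7 with 1 enriched in replicate 1 (3.77), and Sox18 had 3 and 2 with 1 enriched in replicate 1 (3.31). Sox8 had a single cluster, in replicate 2. Sox1, Sox2, Sox14, Sox21, Sox11, Sox15 and Sox30 had no cluster in either table. Sox3 and Sox10 were not analysed here.

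Genes whose products work with SoxD factors or are their known targets were taken as a list. The co-repressor gene Ctbp2 had 153 and 163 clusters with 4 and 5 enriched and top folds of 5.04 and 4.47, and 3 of them were reproducible seen from replicate 1. The histone deacetylase gene Hdac1 and the β-catenin gene Ctnnb1 had 1 reproducible cluster each, with top folds of 5.11 and 4.72 in Hdac1 and 3.53 and 3.57 in Ctnnb1. Ctbp1 and Hdac2 had none. In the list of 6 partners, all with a cluster in both replicates, 3 genes had a reproducible cluster, where 24.5% of all genes with a cluster in both had one. Of the cartilage genes that SOX5, SOX6 and SOX9 activate, the aggrecan gene Acan had 5 and 3 clusters and the link protein gene Hapln1 2 and 3, Col9a1 and Matn1 had none, and none of the 6 that could be placed had an enriched cluster. Of the 6 slow-fibre genes, which SOX6 represses in mouse skeletal muscle, Myh7 had 13 and 14 clusters and Myl2, the ventricular myosin light chain, 14 and 16, with no enriched one in the list. The cartilage list held 20 and 11 clusters and the slow-fibre list 39 and 42, and 6.31% and 4.71% of all clusters were enriched, so a count of 0 in lists of this size sets them little apart. Of 2 other targets, the cyclin gene Ccnd1 had 8 and 7 clusters, none enriched, and Fgf3 had none.

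Set beside 5 other long genes of transcription factors, Sox5 and Sox6 had the smaller shares of enriched clusters. Against 12.2% and 9.19% in Sox5 and 11.4% and 9.34% in Sox6, the shares in replicates 1 and 2 were 32.5% and 30.9% in Ebf1, 26.4% and 29.3% in Tshz2, 21.7% and 16.8% in Mecom, 18.6% and 12.4% in Zbtb20, and 14.6% and 10.5% in Rora. These genes were picked with their binding in these tables known, and the order is a description. The top folds of Sox5, 7.05 and 6.97, lay among theirs, which reached 6.54 and 7.11 in Ebf1, 7.12 and 5.64 in Mecom, and 6.72 and 6.66 in Rora, while those of Sox6, 6.00 and 5.34, exceeded Zbtb20's 5.78 in replicate 1 and not its 5.66 in replicate 2.

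**Figure D5:**
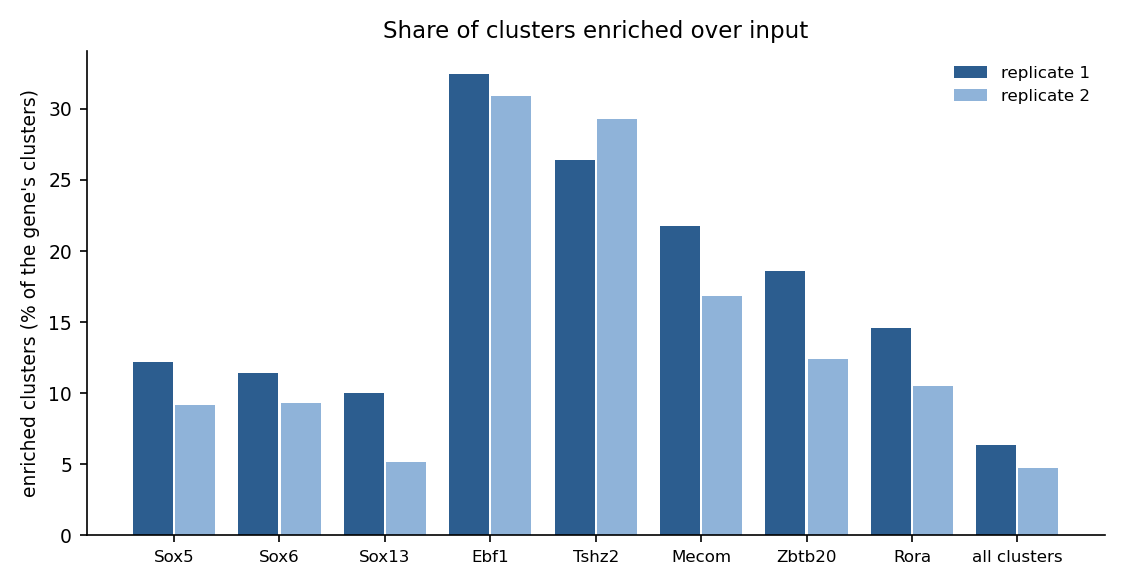
Enriched clusters as a percentage of each gene's clusters (y axis) in replicate 1 (dark bars) and replicate 2 (light bars) for Sox5, Sox6, Sox13, 5 other genes of transcription factors and all clusters of the tables. Sox5 has 12.2% and 9.19% and Sox6 11.4% and 9.34%, under Rora with 14.6% and 10.5% and over all clusters with 6.31% and 4.71%.

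Among genes of a like length (within 1.5 times), Sox5 and Sox6 were on the high side. Of 123 genes near the length of Sox5, 14 had more clusters than its 532 in replicate 1 and 14 more than its 566 in replicate 2, where the medians over those genes were 85 and 78, and 8 had more than its 46 reproducible clusters. Of 288 genes near the length of Sox6, 48 had more than its 307 clusters and 42 more than its 332, where the medians were 140 and 147.5, and 18 had more than its 28 reproducible clusters. Many genes of like length had few clusters. A reproducible cluster was found in 53 of the 123 genes and in 163 of the 288. Expression was not measured here, and its part in these numbers was not tested. Among the 14198 genes with a cluster in both replicates, Sox5 ranked 17 and Sox6 ranked 44 by the number of reproducible clusters. By the number of all clusters Sox5 ranked 21 and 20 and Sox6 81 and 73, in replicates 1 and 2. Shares gave lower ranks, among 1946 genes with at least 50 clusters in each replicate. By the share of clusters enriched, Sox5 ranked 295 and 311 and Sox6 ranked 342 and 294.

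The genes nearest to Sox5 in both shares of enriched clusters, out of 1945 other genes with at least 50 clusters in each replicate, were Zfp280d, Prkce, Inpp4a, St6galnac3 and Rbms1. Their shares lay between 11.8% and 12.6% in replicate 1, and between 8.96% and 9.60% in replicate 2. Those nearest to Sox6 were Chd9, Stxbp6, Stag1, Nedd9 and Psd3, with 11.1% to 11.7% and 9.09% to 9.30%. The measure was the distance between the pairs of shares, 0.283 percentage points for Zfp280d and 0.051 for Chd9, over the 2 replicates, and it says nothing of shared control.

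Markers of cell types that could carry these transcripts were looked up. Clusters on a marker do not show which cells carried Sox5 or Sox6 RNA. All 7 cardiomyocyte markers had clusters in both replicates, with low median folds in most, such as -4.21 and -3.62 in Myl2 and -3.60 and -3.12 in Ttn. Myh6 and Ryr2 differed, with medians of 0.52 and 0.41 in Myh6 and 0.08 and 0.18 in Ryr2. Enriched clusters made up 10.7% and 8.05% in Ryr2, 15.7% and 6.15% in Myh6 and 1.41% and 1.32% in Ttn. Tnnt2, Actc1, Myl2 and Tnni3 had no enriched cluster. All 5 fibroblast, 5 endothelial, 5 pericyte or smooth muscle and 5 macrophage markers had clusters in both replicates too, as did 14198 of the 30074 genes with a strand. The median fold over the clusters of a gene was 1.36 and 1.20 in Sox5 and 1.15 and 1.03 in Sox6 in replicates 1 and 2. The list values that follow are medians over genes, an unlike measure, so no likeness to a list is read from them. The median over a list of its genes' median folds was -3.12 and -2.48 for cardiomyocyte markers, 1.36 and 1.20 for fibroblast markers, and 1.59 and 1.36 for endothelial markers. It was 1.36 and 0.97 for pericyte and smooth muscle markers, 0.62 and -0.16 for macrophage markers, and 0.36 and 0.20 over all genes. For the shorter lists it was 0.36 and 1.18 (epicardium), 0.36 and 1.03 (chondrocyte), and -0.27 and -0.38 (Schwann cell and neuron). Of the Schwann cell and neuron markers, 3 of the 4 that could be placed had clusters in both, and of the epicardium markers both that could be placed. Of the chondrocyte markers, Acan had 5 and 3 clusters and Matn1 none. Which of these cells the Sox5 and Sox6 RNA came from was not tested.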

How the data were processed

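PTBP1 eCLIP was made from 2 lysates of whole heart, each with an immunoprecipitate and a size-matched input, 4 samples in all. STAR 2.6.0c, cutadapt 2.7, UMI-tools 0.5.1 and the builds mm10 and hg38 are named, without roles, per the submitters' processing notes. The cluster caller and its test were not given in the sources used here. Per the file headers, the deposited tables, 1 per replicate, give each cluster's position, strand, log2 fold and −log10 p. The deposited log2 fold is immunoprecipitate over its own input. The deposited −log10 p stops at 400 and is 0 for every negative fold. No read counts were used, so depth is unknown and folds carry no interval. The last replicate 1 cluster of chromosome 1 lies beyond that chromosome in the later mouse assembly, so coordinates were taken as those of mm10, and they are counted from 1.

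Gene spans came from a RefSeq gene table of GRCm38 with 34627 genes. Strands came from the RefSeq promoter table for 27024 genes, and otherwise from clusters of the gene alone where at least 3 were found and 90% were on 1 strand, which gave 30074 genes a strand. Counting, overlaps and correlations were done in Python 3.11.15 with pandas 2.3.3, numpy 2.4.6 and scipy 1.17.1. Replicate pairs were made of each replicate 1 cluster and the replicate 2 cluster sharing most nucleotides with it. The tables were compared for duplication: 196 clusters had the same coordinates in both, and 0 of those the same fold. The scripts were tested on simulated data with known answers.

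The regions named are, for each gene, the 5 with the highest lower fold of the replicates, with the clusters of highest and lowest fold and those nearest to the ends. Other regions and clusters named, such as dense ones and those unequal between replicates, were chosen after their values were seen. The members and lists were chosen with earlier results of these data known, so no test was made and no p-value is given beside the authors' own. The alternatives tried were other thresholds on fold and p, other rules of placing, joining and overlapping clusters, and each replicate alone.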

Additional observations from a re-analysis of the deposited data

How the results depend on the processing

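Of 46 recomputed values, 39 stayed within 1.5 times the reported count or within the spread of the reported value, and 7 did not. Counting a gene's enriched clusters as the mean of the replicates, a fold threshold of 4 in place of 3 left 30 enriched and 17 reproducible clusters in Sox5, against 58.5 and 46, and 14 enriched and 6 reproducible in Sox6, against 33 and 28. Joining clusters that touch left 21 enriched and 17 reproducible regions in Sox6, by construction fewer than its clusters, and 42 and 31 in Sox5. Keeping pairs whose −log10 p reached 3 in both replicates brought r over both genes to 0.451 over 94 pairs, against 0.768 over 510, by construction over a narrower range of folds. In single replicates the enriched clusters ran from 52 to 65 in Sox5 and from 31 to 35 in Sox6. The pair with the strongest shared fold had 7.05 and 6.97 in Sox5 and 5.55 and 5.34 in Sox6, in replicates 1 and 2. That pair was chosen with both replicates, so its folds do not show what a single replicate would choose. By replicate 1 alone the highest Sox6 fold was 6.00, at another site. Clusters in no other gene span on that strand gave 58.5 and 33 enriched clusters, the same as reported. No gene found inside the spans is given a minus strand, so this setting had none of them to act on. Its values are among the 39 and are no check of the counts. Taking clusters that overlap a span by 1 nt, in place of those with their midpoint in it, also gave the same counts. No cluster on the strand lay within 10 kb outside either gene, so that rule had none to add. Another cut of the spans into equal parts kept the same middle boundary, so the share nearer the 5′ end stayed at 71.9% by construction. These values are also among the 39 and are no check. No paired analysis was possible because each deposited fold already sets an immunoprecipitate against the input of its own lysate and no result here comes from a test. Depth is unknown, and with 2 lysates the spread between them rests on a single difference per site.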
